A study of Mus musculus with 6 samples.

Results

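Drug transporters of the liver carry drugs, bilirubin conjugates, bile acids and steroid sulfates across the membrane of the hepatocyte. The 9 transporters described here were taken by gene symbol, as the rows of the gene tables that carry those symbols, and all 9 of them were found among the 18444 genes of the tables. They comprise 5 uptake carriers, Slco1a1, Slco1a4, Slco1b2, Slco2b1 and Slc22a7, and 4 efflux pumps, Abcc2, Abcc3, Abcb1a and Abcg2. The rule uses symbols alone and no measured value, although the members were proposed with earlier results of these data known.

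The data are 6 liver RNA libraries of male C57BL/6 mice (C57BL/6J in the study's methods), 3 for each of 2 models, with 1 library for every condition. The labels give an age of 6 to 8 weeks, and no transgene or mutant allele is named. The diets lasted 16 weeks and the injections 6 weeks, so this cannot be the age at sampling of the mice on the diets. Age at sampling is not given and may differ between the 2 models. In the diet model, mice received a standard diet (SD, labelled as a chow control), a high fat diet (HFD) for 16 weeks, or HFD with 4 weeks of the agonist peptide JT003. In the CCl4 model, mice were injected with corn oil or CCl4 every 3 days for 6 weeks at 5 ml per kg. CCl4 was given as a 20% solution in corn oil, and the third library is from CCl4 mice that also received JT003 for 3 weeks. JT003 is a peptide that binds both adiponectin receptors, AdipoR1 and AdipoR2, and was injected daily into the peritoneum at 500 µg per kg in PBS. Whether the other mice received PBS is not given in the sources used here. The HFD library is labelled NASH, although the study's methods call HFD alone its model of fatty liver disease and add a further diet for NASH. The study had 6 mice per group, and how many mice went into each library is likewise not given.

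Uptake carriers of the OATP family (Slco genes) and OAT2 (Slc22a7) sit on the sinusoidal, blood-facing membrane of hepatocytes and bring organic anions into the cell. The efflux pumps are ABC transporters that use ATP. MRP2 (Abcc2), P-glycoprotein (Abcb1a) and BCRP (Abcg2) face the bile canaliculus, whereas MRP3 (Abcc3) sits on the basolateral membrane and returns conjugates to the blood. In mice several of these genes are known to depend on sex and growth hormone, among them Slco1a1, which is male-biased, and on xenobiotic sensors such as CAR (Nr1i3), PXR (Nr1i2), PPARα and NRF2 (Nfe2l2).

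Each gene had an expected count, the authors' estimate of its reads, and an FPKM value, which is corrected for transcript length. Totals were 19374255 to 20184578 counts per library. Genes were compared between 2 libraries at a time as log2 ratios, scaled for library composition by TMM (trimmed mean of M values), and tested by an exact, two-sided binomial test conditional on the counts of the pair. A gene was called when its Benjamini-Hochberg adjusted p-value over all genes was under 0.001 and its log2 ratio was at least 1 in size. With 1 library per condition there was no replicate spread, so the test compares 2 libraries and not 2 conditions, and the 95% Clopper-Pearson intervals given below cover counting error only. "Rose" and "fell" are used below only for called genes. In whole liver RNA, fewer cells of a type and less RNA per cell cannot be told apart.

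Some of these genes resemble a neighbour closely enough to share reads, so a sequence that is shared is shown first. Slco1a1 and Slco1a4 lie next to each other on mouse chromosome 6, and their coding sequences are 86.7% identical. Abcb1a lies next to Abcb1b on chromosome 5, with 88.1% identity. The longest run that Slco1a1 and Slco1a4 share in full spans 132 coding bases, at positions 672 to 803 of the coding sequence, taken from the transcripts of GENCODE M21 on GRCm38. A read that falls inside it cannot be assigned to either gene by sequence alone:
Slco1a1 and Slco1a4: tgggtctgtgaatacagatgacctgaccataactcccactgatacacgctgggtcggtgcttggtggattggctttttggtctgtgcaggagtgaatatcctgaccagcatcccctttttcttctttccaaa

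Of all windows of 50 bases in the transcript, 2.60% of Slco1a1, 2.73% of Slco1a4 and 17.0% of Abcb1a occur in another gene as well. The counts carry the same mark, since fractional expected counts in all 6 libraries were found only for these 3 members. The other 6 members had whole counts throughout, and of them only Abcc2 had any shared window (0.313%). Abcc2 and Abcc3, though both are MRP pumps, were 60.1% identical. Slco1a4 shared the most windows with Slco1a5, 100 of its 103, and Slco1a5 had at most 1 count in each library of the diet model. Counts of Slco1a1, Slco1a4 and Abcb1a are therefore uncertain, since shared reads could have been split between related genes.

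Stretches just before the start site are shown for 3 members whose levels differed in different directions between the CCl4 and corn oil libraries, Slco1a1 and Slco1b2 for uptake and Abcc2 for efflux. They come from RefSeq on GRCm38.p6, are given on the strand of the gene, and end at the base before the start. Capitals mark AGGTCA (a hexamer bound by nuclear receptors, TGACCT when read on the other strand), GTTAAT (one arm of the HNF1 site) and TGACNNNGC (the core of the antioxidant response element):
Slco1a1, minus strand of chr6:141946963-141947112: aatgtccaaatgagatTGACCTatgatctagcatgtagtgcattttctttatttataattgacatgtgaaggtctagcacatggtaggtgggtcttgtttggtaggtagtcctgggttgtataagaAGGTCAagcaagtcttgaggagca
Slco1b2, plus strand of chr6:141629418-141629517: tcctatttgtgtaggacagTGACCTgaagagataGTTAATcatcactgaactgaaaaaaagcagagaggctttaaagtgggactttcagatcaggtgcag
Abcc2, plus strand of chr19:43782188-43782307: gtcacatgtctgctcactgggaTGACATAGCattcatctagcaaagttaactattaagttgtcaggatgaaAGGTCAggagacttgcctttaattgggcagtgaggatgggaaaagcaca

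The search covered both strands from 250 bases before to 50 bases after each start, and it included GCGTG, the core that the Ah receptor binds. Promoters of 7 of the 9 members, 11 in all, were matched by symbol, and Slc22a7 and Abcc3 had no entry. At least 1 of the 4 motifs was present in 6 of the 11. Among all 32851 mouse promoters of that length, 16.3% hold AGGTCA, 7.10% hold GTTAAT, 12.4% hold TGACNNNGC and 32.4% hold GCGTG. The share that hold at least 1 of the 4 was not worked out, so 6 of 11 cannot be read as an excess. A match of letters describes the sequence and does not show that a factor binds there.

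Slco1b2 encodes Oatp1b2, the mouse counterpart of the OATP1B carriers of human liver, and was the most abundant of the 9 in every library. Its FPKM was 174.37 in SD, 400.77 in HFD, 437.82 in HFD plus JT003, 146.79 in corn oil, 92.49 in CCl4 and 141.39 with CCl4 plus JT003. Both HFD libraries stood above the other 4, and CCl4 was lowest. All 5 neighbouring steps in this order were larger than counting error, and the highest level was 4.84 times the lowest after TMM scaling.

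Slco1a1 encodes Oatp1a1, a carrier of steroid sulfates and other organic anions. Its FPKM was 47.73 in SD, 81.02 in HFD, 106.45 in HFD plus JT003, 55.68 in corn oil, 7.02 in CCl4 and 10.66 with CCl4 plus JT003. Both CCl4 libraries stood far below the other 4, with counts of 568 and 830 against at least 3865. Of all members it had the widest range, 15.5-fold between HFD plus JT003 and CCl4.

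Slco1a4 encodes Oatp1a4, which transports bile acids and cardiac glycosides among others. FPKM of Slco1a4 was 4.50 in SD, 3.83 in HFD, 9.67 in HFD plus JT003, 23.84 in corn oil, 21.06 in CCl4 and 23.17 with CCl4 plus JT003. Here the libraries split by model rather than by injury, since all 3 of the CCl4 model were above all 3 of the diet model. CCl4 and CCl4 plus JT003 did not differ beyond counting error, and the range was 7.25-fold.

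Slc22a7 encodes the organic anion transporter Oat2. Its FPKM was 6.97 in SD, 31.24 in HFD, 24.77 in HFD plus JT003, 8.14 in corn oil, 6.14 in CCl4 and 11.12 with CCl4 plus JT003. Both HFD libraries were again the highest, and corn oil and CCl4 plus JT003 were not distinguishable beyond counting error. Slco2b1, which encodes Oatp2b1, was the steadiest member. Slco2b1 FPKM was 39.67 in SD, 45.49 in HFD, 43.90 in HFD plus JT003, 33.32 in corn oil, 34.14 in CCl4 and 29.62 with CCl4 plus JT003. The 6 libraries lay within 1.69-fold of each other, with SD and HFD plus JT003 not distinguishable.

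Among the pumps, Abcc2, the canalicular exporter of bilirubin glucuronides, had FPKM values of 67.52 in SD, 67.94 in HFD, 93.97 in HFD plus JT003, 32.15 in corn oil, 62.73 in CCl4 and 43.21 with CCl4 plus JT003. It was highest in HFD plus JT003 and lowest in corn oil, a range of 2.48-fold. Abcc3, the basolateral exporter of glucuronides, stood at 21.81 FPKM in SD, 52.66 in HFD, 62.12 in HFD plus JT003, 45.75 in corn oil, 62.57 in CCl4 and 43.44 with CCl4 plus JT003. SD alone was low, and the range was 2.59-fold. HFD and corn oil were not distinguishable beyond counting error, nor were CCl4 and HFD plus JT003.

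Abcg2, which exports sulfates and many drugs into bile, measured 40.80 FPKM in SD, 40.81 in HFD, 54.82 in HFD plus JT003, 26.03 in corn oil, 32.65 in CCl4 and 29.89 with CCl4 plus JT003. All 3 libraries of the CCl4 model were below all 3 of the diet model, and the range was 1.98-fold. Abcb1a, a mouse P-glycoprotein gene, was scarce in every library. FPKM of Abcb1a was 0.23 in SD, 0.54 in HFD, 1.43 in HFD plus JT003, 0.20 in corn oil, 1.18 in CCl4 and 1.44 with CCl4 plus JT003, from counts of 23, 54, 143, 19, 120 and 141. Both controls were lowest and did not differ beyond counting error, and the 3 highest libraries did not separate from each other in the order, while CCl4, the lowest of them, separated from HFD. The range of 6.27-fold thus rests on few reads.

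**Figure D1:**
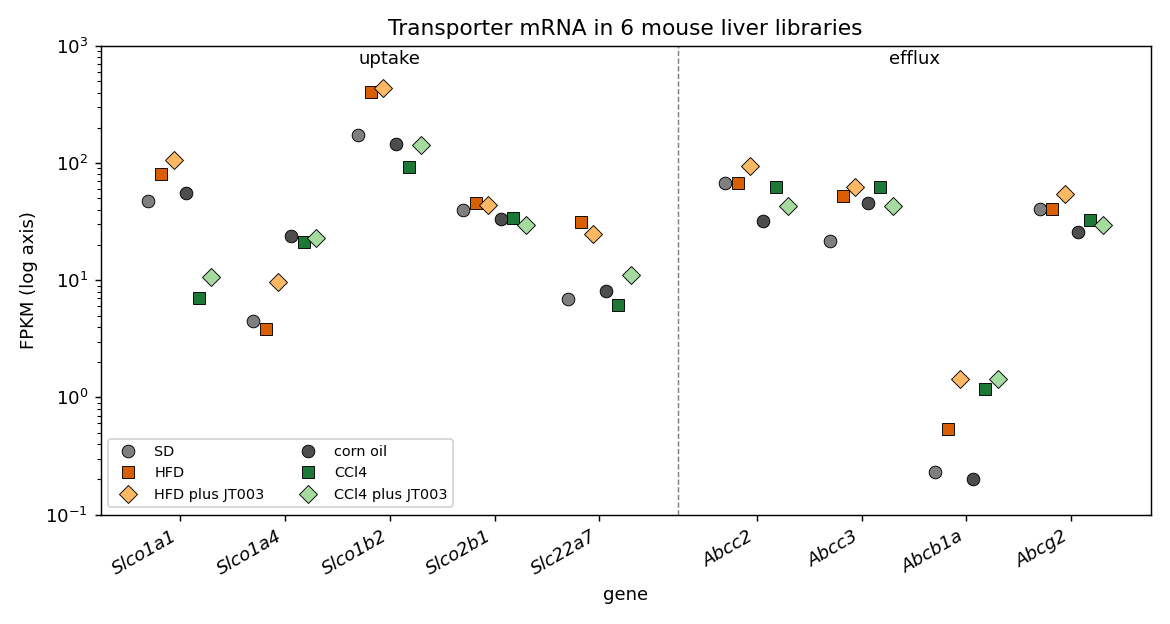
Each point is the FPKM (log axis) of a transporter in 1 of the 6 libraries, uptake carriers left of the dashed line and efflux pumps right of it. Slco1a1 drops to 7.02 and 10.66 FPKM in both CCl4 libraries, Slco1a4 splits by model, and Abcb1a stays at or below 1.44 FPKM throughout.

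HFD against SD asks what a high fat diet does to the liver. Slc22a7, Slco1b2 and Abcc3 rose, and none of the 9 fell. The log2 ratio of Slc22a7 was 2.03 (1.85 to 2.23), a 4.09-fold difference, from 283 to 1241 counts. Slco1b2 had a log2 ratio of 1.08 (1.05 to 1.11) and Abcc3 one of 1.15 (1.08 to 1.22). Thus 2 of 5 uptake carriers and 1 of 4 pumps were called, while 2.92% of all 16973 genes tested were called higher and 2.47% lower. With a coefficient of variation of 0.2 between animals assumed, Slc22a7 was the 1 member still called.

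The remaining 6 members were not called between HFD and SD. Slco1a1 had a log2 ratio of 0.64 (0.58 to 0.70), past counting error but under the size required. Abcb1a reached 1.08 (0.41 to 1.91) on that scale, but with 23 and 54 counts its adjusted p-value in the exact test was 0.00534. Log2 ratios of Abcc2, Abcg2, Slco2b1 and Slco1a4 were -0.11, -0.12, 0.08 and -0.36. Those of Abcc2 and Abcg2 changed sign when libraries were scaled by their total counts.

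HFD plus JT003 against HFD asks what the agonist does in the fatty liver. Slco1a4 and Abcb1a rose, and no member fell. Slco1a4 went from 294 to 747 counts, a log2 ratio of 1.32 (1.13 to 1.52) or 2.49-fold. Abcb1a went from 54 to 143 counts, with a log2 ratio of 1.35 (0.92 to 1.86) or 2.55-fold. Called genes were rare in this comparison, 0.743% of 17094 genes higher and 0.883% lower. Both called members are among those whose reads are shared with a neighbour, and both calls were lost when a coefficient of variation of 0.2 between animals was assumed. On the scale of log2 FPKM plus 1, Abcb1a was at 0.66.

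None of the other 7 reached a log2 ratio of 0.5 in size. Abcc2 was at 0.45 (0.41 to 0.50), Abcg2 at 0.41 (0.33 to 0.49), Slco1a1 at 0.38 (0.33 to 0.43) and Abcc3 at 0.22 (0.17 to 0.28). All 4 pumps thus had a ratio above 0, against 3 of 5 carriers. Slc22a7, which rose with HFD, had a log2 ratio of -0.35 (-0.47 to -0.23) with JT003. Slco1b2 and Slco2b1 were nearly level, at log2 ratios of 0.11 and -0.07.

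CCl4 against corn oil asks what chronic toxic injury does. Slco1a1 fell and Abcb1a rose, and these were the 2 members called. From 4350 counts in corn oil, Slco1a1 went to 568 in CCl4, a log2 ratio of -3.25 (-3.38 to -3.13), or 9.51-fold lower. Abcb1a went from 19 to 120 counts, a log2 ratio of 2.24 (1.64 to 3.12), or 4.72-fold higher. Over all 17236 genes, 4.51% were called higher and 2.53% lower. Both calls were lost at an assumed coefficient of variation of 0.4, and on the scale of log2 FPKM plus 1 Abcb1a was at 0.86.

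Uptake carriers and pumps lay on opposite sides of 0 in this comparison. All 5 carriers had a ratio below 0. Slco1b2 stood at a log2 ratio of -0.93 (-0.98 to -0.89), Slc22a7 at -0.67 (-0.92 to -0.43), Slco1a4 at -0.45 (-0.54 to -0.35) and Slco2b1 at -0.23 (-0.30 to -0.16), although that of Slco2b1 changed sign when libraries were scaled by their total counts. All 4 pumps had a ratio above 0, with Abcc2 at 0.70 (0.64 to 0.76) and Abcc3 at 0.18 (0.13 to 0.24). Abcg2, at 0.06 (-0.05 to 0.17), did not differ beyond counting error.

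CCl4 plus JT003 against CCl4 asks what the agonist does in the injured liver. No member was called in this comparison, where 1.85% of 17393 genes were called higher and 2.54% lower. Abcc2 and Abcc3 had log2 ratios of -0.61 (-0.67 to -0.56) and -0.60 (-0.66 to -0.55), and Abcg2 had -0.20 (-0.31 to -0.10). Slc22a7, Slco1b2 and Slco1a1 lay on the other side, at 0.78 (0.55 to 1.01), 0.54 (0.49 to 0.58) and 0.53 (0.37 to 0.68). Slco2b1 was at -0.29 (-0.36 to -0.21). For Slco1a4, at 0.06 (-0.04 to 0.16), and Abcb1a, at 0.21 (-0.15 to 0.58), the interval held 0. This comparison and the previous one share the CCl4 library, so a chance high or low value there enters both with opposite sign.

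**Figure D2:**
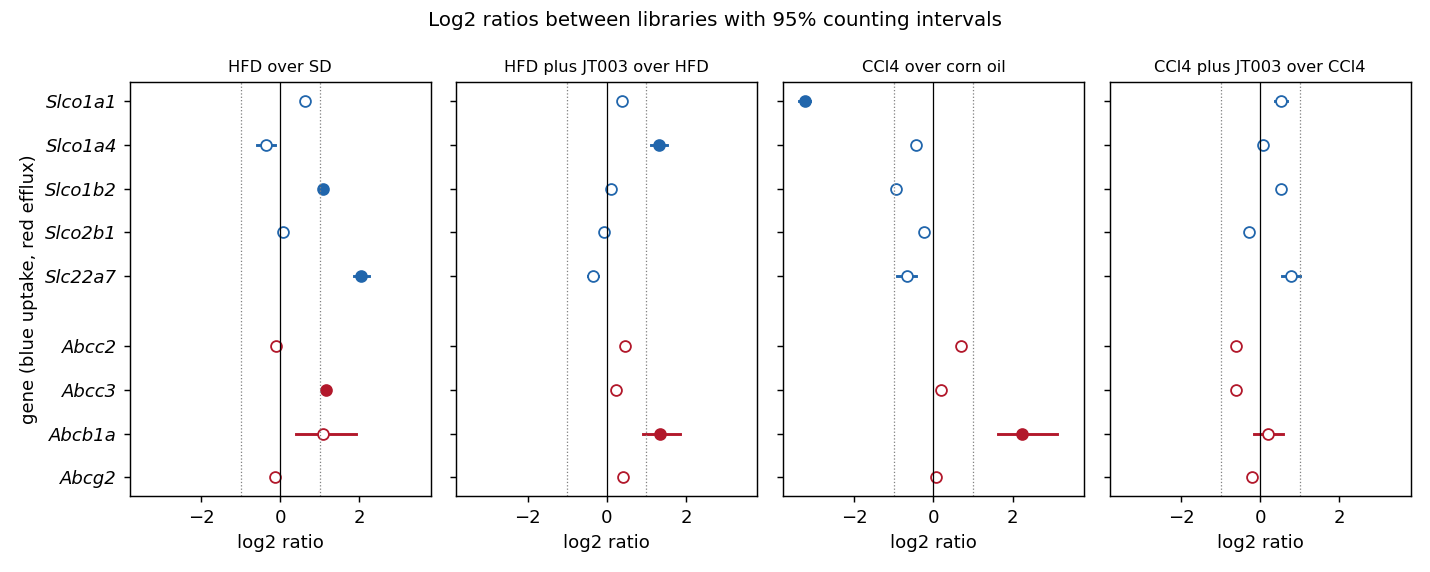
Each panel shows the log2 ratio of a transporter between 2 libraries, with its 95% counting interval (hidden by the symbol where narrow), blue for uptake and red for efflux. Filled symbols are the 7 called ratios of 36, dotted lines mark a log2 ratio of 1 in either direction, and the CCl4 over corn oil panel has its blue symbols left of 0 and its red ones right of 0.

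A further set of CCl4 counts was available beside the library. The authors' table for CCl4 and CCl4 plus JT003 holds a CCl4 column whose sum is 2.97 times that of the CCl4 library, with all genes but 24 at or above their count there. Subtracting the library leaves a remainder, taken here as reads of other CCl4 livers, which is inferred from the values and not stated in the sources used here. The remainder and the CCl4 library differed in 284 of 17471 genes (1.63%), and Slco1a1 was the 1 member among them. Its level in the remainder was 2.29 times that in the library, a log2 ratio of 1.20 (1.07 to 1.33), larger than the called log2 ratios of Slco1b2 and Abcc3 for HFD over SD.

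Against corn oil, the remainder gave Slco1a1 a log2 ratio of -2.05 (-2.12 to -1.99), 4.15-fold lower, and Abcb1a one of 2.20 (1.59 to 3.02). The fall of Slco1a1 and the rise of Abcb1a were thus present with and without the CCl4 library. Abcc2 was at 0.62 against 0.70 with the library. Abcc3 at -0.50 and Abcg2 at -0.24 had the opposite sign, so 2 of 4 pumps were above corn oil with the remainder where 4 of 4 were with the library. All 5 carriers stayed below 0, Slco1b2 at -0.54, Slco2b1 at -0.33, Slco1a4 at -0.23 and Slc22a7 at -0.17 (-0.36 to 0.02).

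With the remainder as reference, JT003 gave 4 members the opposite sign and again called none of the 9. Slco1a1 was at a log2 ratio of -0.67 (-0.79 to -0.56) where it had been 0.53, and Slco1a4 was at -0.16. Abcc3 was at 0.08 where it had been -0.60, and Abcg2 was at 0.10. Log2 ratios of Slc22a7 at 0.28, Slco1b2 at 0.14, Abcb1a at 0.29, Slco2b1 at -0.19 and Abcc2 at -0.54 kept their sign. Of the 9, Abcc2 therefore had the ratio that depended least on the reference among those above 0.5 in size.

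**Figure D3:**
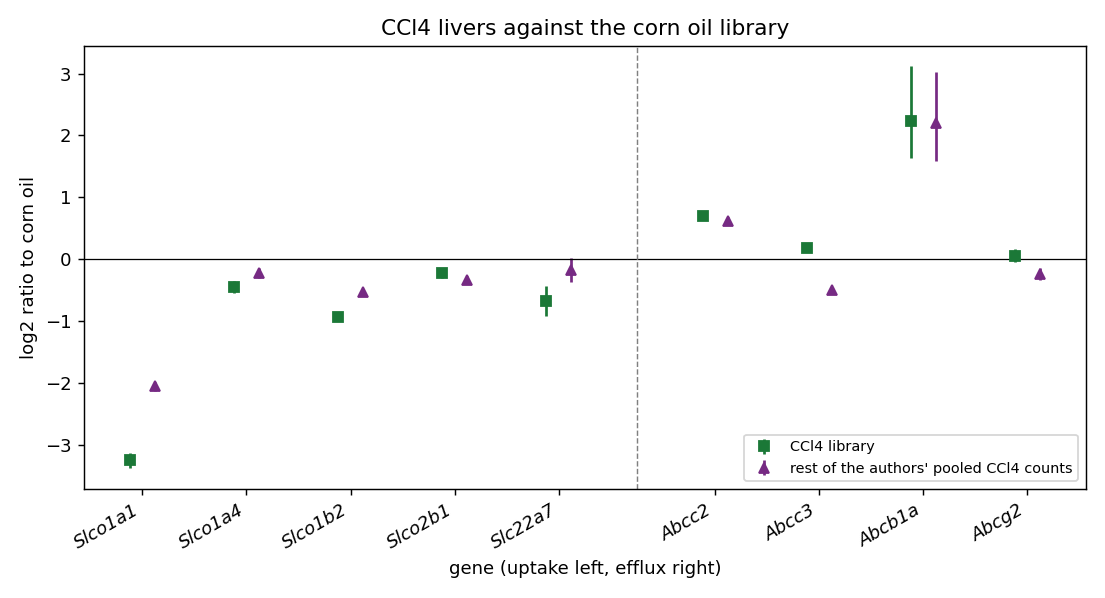
Log2 ratio to the corn oil library for each transporter, from the CCl4 library (squares) and from the rest of the authors' pooled CCl4 counts (triangles), with 95% counting intervals. Slco1a1 is at -3.25 and -2.05, Abcb1a at 2.24 and 2.20, and Abcc3 and Abcg2 change side.

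The 2 control livers offer a further measure of how far libraries without CCl4, HFD or JT003 lay apart, although they were not replicates. They differ in injections and in the length of the experiment (16 weeks of diet for SD, 6 weeks of injections for corn oil), and may differ in age. The diet of the corn oil mice is not given in the sources used here. Corn oil against SD gave Slco1a4 a log2 ratio of 2.49 (2.33 to 2.67), 5.63-fold, which was larger than any difference of this gene within a model. Abcc3 stood at 1.17 (1.09 to 1.24), or 2.24-fold, about as far from SD as in HFD. Both were called, where 2.18% of 17020 genes were called higher and 3.24% lower. Abcc2 was at -0.97 (-1.03 to -0.91) and Abcg2 at -0.55 (-0.65 to -0.45), both lower in corn oil than in SD. In CCl4 both were still below SD, at 62.73 against 67.52 FPKM for Abcc2 and 32.65 against 40.80 for Abcg2. Abcc3 and Abcb1a in CCl4 were above SD as well as corn oil, at 62.57 against 21.81 and 1.18 against 0.23 FPKM in SD.

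Summed over genes, the balance of uptake and efflux differed between libraries. Per length, the 5 carriers summed to 273.24 FPKM in SD, 562.35 in HFD, 622.61 in HFD plus JT003, 267.77 in corn oil, 160.85 in CCl4 and 215.96 with CCl4 plus JT003. The 4 pumps summed to 130.36, 161.95, 212.34, 104.13, 159.13 and 117.98 FPKM in the same order. Uptake over efflux was thus 2.10, 3.47, 2.93, 2.57, 1.01 and 1.83. It was highest in HFD, and in the CCl4 library both sums were nearly equal. The CCl4 value rests on that library alone. Levels in the remainder over the library were 1.32 for Slco1b2, 2.29 for Slco1a1, 1.42 for Slc22a7, 1.16 for Slco1a4 and 0.93 for Slco2b1. For the pumps they were 0.95 for Abcc2, 0.62 for Abcc3, 0.81 for Abcg2 and 0.95 for Abcb1a. Uptake over efflux was not worked out for the remainder.

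The numerator of this ratio is mostly Slco1b2, which made up 54.8% to 71.3% of the uptake sum. With Slco1b2 and Abcc2 left out of every library, the ratio was 1.57 in SD, 1.72 in HFD, 1.56 in HFD plus JT003, 1.68 in corn oil, 0.709 in CCl4 and 0.997 with CCl4 plus JT003. HFD stayed highest and CCl4 lowest, but the 4 libraries without CCl4 then lay close together. Abcc3 rather than Abcc2 was the most abundant pump in corn oil and in CCl4 plus JT003, and with the most abundant gene of each library left out instead, those 2 libraries stood at 2.07 and 1.00.

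**Figure D4:**
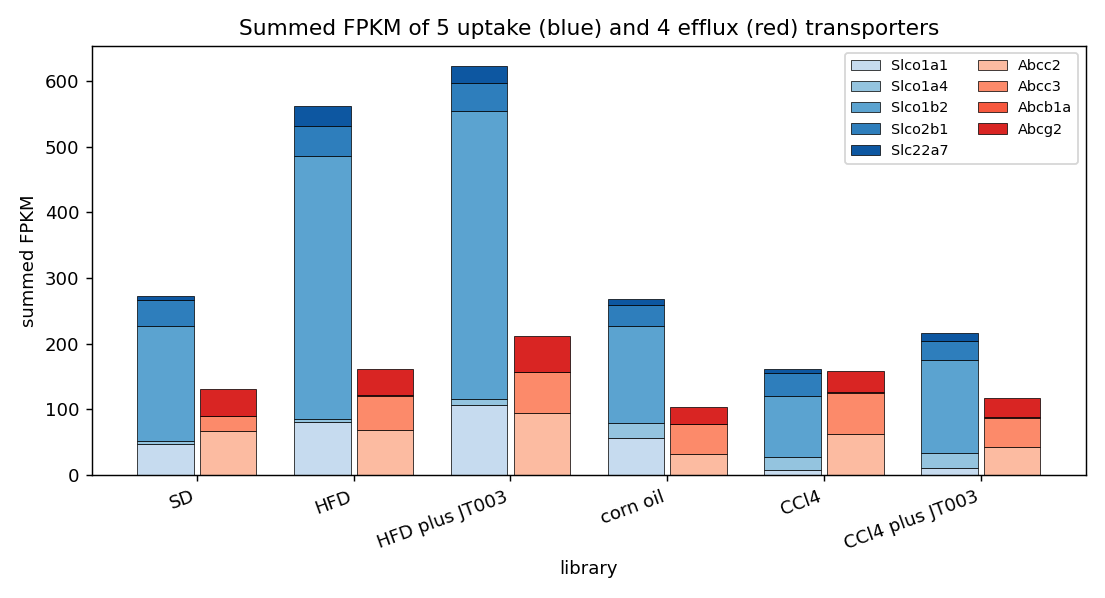
Stacked bars give the summed FPKM of the 5 uptake carriers (blue) and the 4 efflux pumps (red) in each library, with the share of each gene. Slco1b2 forms most of each blue bar, and the CCl4 library is where both bars are nearly level, at 160.85 and 159.13 FPKM.

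By members rather than sums, the median log2 ratio of carriers and of pumps was 0.64 and 0.48 for HFD over SD, and 0.11 and 0.43 for HFD plus JT003 over HFD. For CCl4 over corn oil the medians were -0.67 and 0.44, and for CCl4 plus JT003 over CCl4 they were 0.53 and -0.40. The median over all genes tested was between -0.024 and -0.00042 in these 4 comparisons. The largest gap between the sides was that of CCl4 over corn oil, -1.11, and it was -0.52 with the remainder of the pooled column in place of the library. For JT003 in the CCl4 model the gap of 0.93 became -0.25 with the remainder, so its direction depended on the reference.

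Other transporters of the same kinds were followed as 2 lists of 12, of which 11 each were in the tables. Of 11 further uptake or bidirectional carriers, 3 fell and none rose with HFD, in the same comparison in which Slco1b2 and Slc22a7 rose. Slc22a5, the carnitine transporter Octn2, went from 4583 to 1149 counts, a log2 ratio of -2.09. Slco2a1, a prostaglandin carrier, was at -1.28, and Slc22a3, the cation transporter Oct3, was at -1.16. Slc22a5 also fell between the controls, at -1.07 for corn oil over SD. With CCl4, Slc22a3 fell from 190 to 12 counts, a log2 ratio of -4.07, and was the 1 gene of 10 called. JT003 called none of them in either model. Shares of all genes called higher and lower were 2.92% and 2.47% with HFD, and 4.51% and 2.53% with CCl4. With JT003 they were 0.743% and 0.883% in the diet model, and 1.85% and 2.54% in the CCl4 model. Median log2 ratios of this list ranged from -0.12 to 0.08 over the 4 comparisons.

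Among 11 further efflux genes, Abcg5, a subunit of the canalicular sterol pump, rose with HFD at a log2 ratio of 1.01. Abcb4, the phosphatidylcholine flippase, fell with HFD from 16268 to 7922 counts, at -1.13. With CCl4, Abcb1b was the 1 gene called, at -1.37 on 63 and 29 counts, and it was singled out after its values were seen because it is the gene that shares reads with Abcb1a. Its ratio was opposite in sign to that of Abcb1a in the same pair of libraries. JT003 called no gene of this list in either model. Shares of all genes called in these comparisons are those given above for the further carriers. Median log2 ratios of this list were 0.47 for HFD over SD, 0.13 for JT003 in the diet model, -0.05 for CCl4 over corn oil and 0.07 for JT003 in the CCl4 model. In CCl4 over corn oil, 5 of these 11 genes were above 0, beside 4 of 4 among the pumps.

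Regulators of these transporters were called 1 at a time, each of them higher. Over all genes, 2.92% were called higher for HFD over SD, 0.743% for HFD plus JT003 over HFD and 4.51% for CCl4 over corn oil. No difference of the regulators from these shares was tested. Of 12 listed genes, Ahr, the Ah receptor, rose with HFD from 335 to 893 counts (log2 ratio 1.32). Nr1i3, the sensor CAR, rose with JT003 in the diet model from 2139 to 5387 counts (1.31), in the comparison in which Slco1a4 and Abcb1a rose. The CAR target Cyp2b10 had 2 and 7 counts in that comparison and was not called. With JT003 in the CCl4 model Nr1i3 was at 0.86 and Slco1a4 at 0.06, neither of them called. Whether CAR had a part in these ratios was not tested. Nfe2l2, which encodes NRF2, rose with CCl4 from 806 to 2254 counts (1.16). None of the 12 was called with JT003 in the CCl4 model, and Nr0b2, the repressor SHP, was higher in corn oil than in SD (1.40).

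Genes known as targets of those regulators gave a mixed picture in a list of 10. With HFD 0 were called higher and 2 lower, Cyp4a10 and Cyp4a14, both targets of PPARα. With JT003 in the diet model the same pair rose, at log2 ratios of 1.63 and 2.03. With CCl4, 3 rose, Cyp2b10 as a CAR target and Nqo1 and Gclc as NRF2 targets, and Cyp4a10 and Cyp4a14 fell. Cyp2b10 fell with JT003 in the CCl4 model, at -1.96, and was the only gene of the list called there. Shares of all genes called higher and lower were 2.92% and 2.47% with HFD, and 4.51% and 2.53% with CCl4. With JT003 they were 0.743% and 0.883% in the diet model, and 1.85% and 2.54% in the CCl4 model.

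Male-biased liver genes fell with CCl4 alongside Slco1a1, itself a male-biased gene. In CCl4 against corn oil, 9 of 10 such genes fell and none rose, with a median log2 ratio of -3.05. Of all genes tested there, 2.53% were called lower and 4.51% higher. In HFD against SD 2 rose and 2 fell, and with JT003 in the diet model 2 fell. With JT003 in the CCl4 model 2 rose and 1 fell, with a median of 0.21. Of 10 female-biased genes 3 rose with CCl4 and none fell, and with HFD 2 rose and 1 fell. With JT003 none was called in the diet model, and 2 rose and 1 fell in the CCl4 model. For HFD over SD, 2.92% of all genes were called higher and 2.47% lower. With JT003 these shares were 0.743% and 0.883% in the diet model, and 1.85% and 2.54% in the CCl4 model. Whether the shift of male-biased genes had a part in the level of Slco1a1 was not tested.

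Marker genes of other cell types were set beside the transporters. The 6 hepatocyte markers summed to 44593.8 to 57328.2 FPKM in all libraries, and Alb made up most of each sum. For HFD over SD, 4 of the 6 had a ratio above 0 and 1 was called lower, with Cps1 at 630.31 FPKM in SD and 308.33 in HFD. For CCl4 over corn oil, 2 of the 6 had a ratio above 0 and the median log2 ratio was -0.19, although the sum was higher in CCl4. Of 8 markers of kidney, pancreas and intestine, Kap, Slc12a1 and Prss2 had no row in any table, and Umod and Pnlip were at most 0.03 FPKM. Vil1 reached 0.21 FPKM, whereas Cela1, an elastase known from pancreas, was at 4.55 to 14.32 FPKM and Fabp2, known from intestine, at 51.82 to 104.54. From this list, Cela1 was called higher in HFD than in SD. For CCl4 over corn oil 1 gene of it was called lower, with Fabp2 at 98.54 FPKM in corn oil and 51.82 in CCl4. Of all genes, 2.92% were called higher and 2.47% lower for HFD over SD, and 4.51% and 2.53% for CCl4 over corn oil. For CCl4 over corn oil, 6 of 6 bile duct markers had a ratio above 0 and 3 were called. Their sum went from 26.70 FPKM in corn oil to 104.52 with CCl4 and 105.79 with JT003 added, against 16.10 to 26.10 in the diet model. Spp1 made up most of each sum, at 21.04 FPKM in corn oil, 90.54 with CCl4 and 95.07 with JT003 added. Cftr, a defining bile duct gene, had no row in the 3 diet libraries and was at most 0.06 FPKM elsewhere. Endothelial markers summed to 40.66 FPKM in corn oil and 25.29 in CCl4, and were 63.65 to 80.74 in the diet model. Macrophage markers summed to 33.48 FPKM in corn oil against 134.91 in SD, with all 6 lower, and to 107.79 in CCl4. Stellate cell markers summed to 12.19 FPKM in corn oil and 48.62 in CCl4, and to 13.47 in SD and 34.32 in HFD. Between corn oil and CCl4, 4 of these 6 had a log2 ratio above 0. Col1a1 at 1.97 and 20.41 FPKM and Col3a1 at 2.65 and 19.46 carried most of the CCl4 sum, while Acta2 was at 3.27 and 2.07 and Lrat at 1.28 and 1.30. Lymphocyte markers summed to 1.78 to 3.32 FPKM, and Cd3e had no row in the CCl4 library.

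Dividing cell markers stood apart most, at 55.18 FPKM in CCl4 against 0.45 to 2.55 in the other 5 libraries. In the remainder of the pooled CCl4 column they were also high, at 107 CPM (TMM-scaled counts as a share of the library) against 150 in the CCl4 library and 3.58 in corn oil. The part of these cell types in the transporter ratios was not tested.

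Genes whose pattern was most like those of the most variable member on each side were sought among 3487 genes, by Pearson's r over the 6 libraries of log2 CPM. For Slco1a1 these were Npr2 (r = 0.998), Mup1 (0.996), Adgrg2 (0.994), Glul (0.994) and Rcan2 (0.992). Glul had counts of 17991, 25793, 28161, 14862, 1962 and 2594 in the order SD, HFD, HFD plus JT003, corn oil, CCl4 and CCl4 plus JT003, low in both CCl4 libraries as Slco1a1 was. For Abcb1a, whose range was the widest of the pumps, they were Cyp2a22 (0.986), Mapre2 (0.961), Atad2 (0.956), Adra1b (0.951) and Hsd17b6 (0.949). These values describe 6 points that share libraries and models, and no p-value is given for them.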

How the data were processed

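Livers were taken after 8 h of fasting, RNA was extracted with Trizol and libraries were sequenced on a BGISEQ-500. The submitters' processing notes name HISAT, Bowtie2, RSEM and build mm9, without roles. Per library, the deposited values are the authors' expected count of each gene, without normalization, and its FPKM. Each table lists only genes with reads, and a gene without a row in a library was taken as 0 counts there. Columns holding the authors' own comparisons (fold changes, p-values) were not used, apart from the pooled CCl4 count column, whose empty cells were taken as 0.

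Expected counts were rounded. Library sizes were scaled by TMM over the 6 libraries (edgeR 4.0.16, R 4.3.3). Genes with at least 1 count in a pair were tested (scipy 1.17.1), with log2 ratios at a prior count of 2. The procedure was tested on simulated data. With 1 library per condition no edgeR quasi-likelihood or DESeq2 test could be fitted, and DESeq2 1.42.0 gave size factors only. Alternatives covered scaling, thresholds, filters, pseudocounts and the CCl4 reference. All 9 members are named. Genes of the other transporter and regulator lists are named if called and if 1 library of the pair has at least 100 counts, and the 5 most alike by r. Abcb1b and Slco1a5 are named besides, as genes that share sequence with members. Members and lists were chosen with earlier results of these data known. Sequences come from RefSeq (GRCm38.p6) and GENCODE, another build than mm9, and were matched by symbol.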

Additional observations from a re-analysis of the deposited data

Results flagged for a closer look

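For 4 of the 9 transporters, JT003 went with ratios of opposite sign in the diet model and in the CCl4 model. The share of all genes with such opposite signs was not worked out, so 4 of 9 cannot be read as particular to these transporters. The difference between the models was not tested, since each model has 1 library per condition. Slc22a7 had a log2 ratio of -0.35 with JT003 in the diet model and 0.78 in the CCl4 model. Abcc2 had 0.45 and -0.61, Abcc3 had 0.22 and -0.60, and Abcg2 had 0.41 and -0.20. With the remainder of the pooled CCl4 column as reference, Slc22a7 at 0.28 and Abcc2 at -0.54 still had the opposite sign to the diet model, whereas Abcc3 at 0.08 and Abcg2 at 0.10 had the same sign as there. None of the 8 ratios passed the threshold for a call.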

How the results depend on the processing

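No paired analysis was possible because each condition has 1 library. Over the 36 ratios, DESeq2 size factors, TMM over the 3 libraries of a model, a minimum of 10 counts and a prior count of 0.5 changed no sign and no call. At an adjusted p of 0.05, Abcb1a in HFD over SD was also called. Scaling by total counts turned HFD over SD of Abcc2 to 0.011 and of Abcg2 to 0.0022, and CCl4 over corn oil of Slco2b1 to 0.033. With FPKM plus 1 these were 0.0088, 0.00035 and 0.034, and with FPKM plus 0.1 they were 0.0089, 0.00035 and 0.035.

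Members called were 3, 2, 2 and 0 in HFD over SD, HFD plus JT003 over HFD, CCl4 over corn oil and CCl4 plus JT003 over CCl4. Without the log2 minimum they were 5, 8, 8 and 7. The share of all genes called without that minimum was not worked out, so these counts cannot be read as particular to the transporters. Where a coefficient of variation of 0.2 between animals was assumed, 1 was called in the first and 0 in the second, and at 0.4 each of the first 3 had 0. FPKM plus 1 called 1 in the second and 1 in the third. The gap between sides for HFD over SD was 0.58 with FPKM plus 1.

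With the pooled CCl4 column in place of the CCl4 library, Abcc3 and Abcg2 over corn oil were -0.23 and -0.13. For JT003, Slco1a1 and Slco1a4 were -0.39 and -0.10 and the uptake median was -0.10. The gap between sides was -0.57 over corn oil and 0.00081 for JT003. The remainder, an alternative chosen after seeing the data, gave -0.50 and -0.24 over corn oil with a gap of -0.52. For JT003 it gave Slco1a1 -0.67, Slco1a4 -0.16, Abcc3 0.082 and Abcg2 0.10, with medians of -0.16 for uptake and 0.090 for efflux and a gap of -0.25. Cause was not tested. Uptake over efflux without the most abundant gene per side was 1.57, 1.72, 1.56, 2.07, 0.709 and 1.00 (SD, HFD, HFD plus JT003, corn oil, CCl4, CCl4 plus JT003), where the pump left out was Abcc3 in corn oil and CCl4 plus JT003 and Abcc2 otherwise. Without Slco1b2 and Abcc2 throughout, corn oil was 1.68 and HFD highest at 1.72. Depth limits Abcb1a most, at 19 to 143 counts.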
